A study of Mus musculus with 12 samples.

Results

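The comparison of angiotensin II (Ang II) with sham infusion in wild-type (WT) splenic T cells was described across gene classes and pathways. It rested on 6 of the 12 RNASeq libraries of the series, 3 from Ang II-infused and 3 from sham WT mice, chosen by their labels alone. Of 49315 genes in the count table, the 16012 with enough counts in these 6 libraries were tested. The study examined 12-week-old male mice, WT or without miR-214, that carried osmotic minipumps for 14 days. WT sham mice received vehicle and WT Ang II mice received Ang II at 490 ng/kg per day, with 1 library per mouse. T cells were taken from the spleen by magnetic negative selection, which removes labelled cells of other types and leaves behind whatever the antibodies did not bind. The infusion was systemic, so Ang II reached all tissues and not T cells alone.

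Ang II raises blood pressure and acts mainly through the AT1 receptor on vessels, kidney and adrenal gland. T cells take part in the vascular inflammation of Ang II hypertension. The spleen holds mostly resting naive T cells, and in mice it can also make red cells, granulocytes and platelets. Naive T cells are kept at rest by factors such as KLF2, and dividing cells switch on DNA replication genes and then mitosis genes in turn.

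Total counts were between 22775526 and 27928149 per WT library, and the 10 most abundant genes took between 4.35% and 5.25% of a library. The first principal component held 57.6% of the variance and placed the 3 sham libraries at -64.09 to -25.05 and the 3 Ang II libraries at 34.24 to 57.56. On the second component, with 16.5% of the variance, Ang II replicate 1 stood apart at 51.38 from the other Ang II libraries at -25.5 and -13.63. Ang II replicate 1 also had the highest mean log2 CPM of globin, late neutrophil, monocyte and splenic macrophage genes, and sham replicate 1 that of B cell genes, although by share of counts the B cell genes were highest in Ang II replicate 3 (0.530% against 0.179%). The defining T cell genes were abundant in all 6 libraries, with Cd3e, a chain of the T cell receptor complex, at 291 CPM (the usual scaling of counts by library size) or more. No batch was given by the labels.

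Far more genes rose than fell after Ang II. Calls needed an adjusted p below 0.05 in edgeR's quasi-likelihood test together with a log2 fold change beyond 1, taken as Ang II minus sham throughout. Of 16012 genes, 1122 were called higher (7.01%) and 47 lower (0.294%), or 7.3% either way, and 35.6% had an unadjusted p under 0.05. Without the limit on fold change, 1878 genes were higher (11.7%) and 1131 lower (7.06%) at an adjusted p under 0.05. The size of the changes differed by direction: 500 of the called rises exceeded 4-fold and 148 exceeded 8-fold, whereas 0 of the called falls exceeded 4-fold. The median log2 fold change was 1.87 over the genes called higher and -0.02 over all genes tested. Of the 1131 genes lower at an adjusted p under 0.05, 1084 had fallen by less than 2-fold, against 756 of the 1878 that were higher. All 3 Ang II libraries lay above all 3 sham libraries in 3285 genes (20.5%) and below them in 3250 genes (20.3%). These shares, and the 7.01% called higher, are the background for every count of list members below. The genes called higher took 0.920% to 1.14% of all counts in sham libraries and 3.72% to 4.33% in Ang II libraries.

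**Figure D1:**
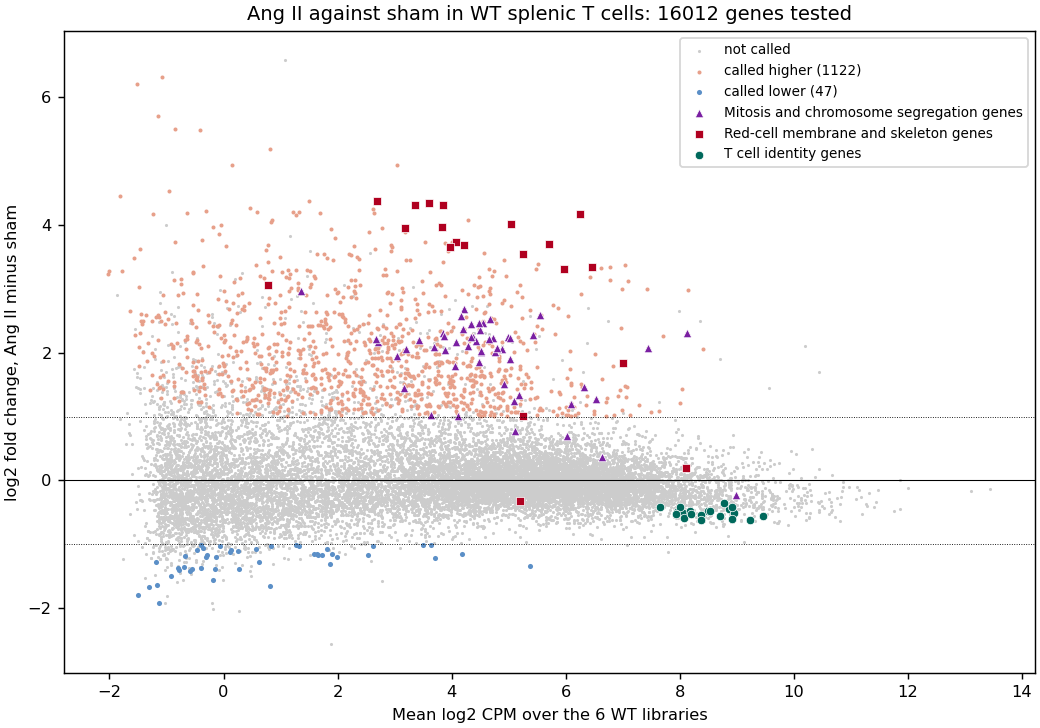
Each point is 1 of 16012 genes, with the mean log2 CPM over the 6 WT libraries on the x axis and the log2 fold change, Ang II minus sham, on the y axis. Dotted lines mark a log2 fold change of 1 and -1. Mitosis genes and red-cell membrane genes lie mostly above the upper line, and the 20 T cell identity genes lie together between -0.62 and -0.35 at high abundance.

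The count of calls depended on single libraries. It fell to 554 higher without sham replicate 1, to 582 without sham replicate 3 and to 593 without Ang II replicate 3, and 462 genes were called higher in all 6 fits that left out 1 library each. The called falls moved more. There were 10, 22 and 23 without sham replicate 1, 2 and 3, and 85, 26 and 6 without Ang II replicate 1, 2 and 3, and 0 genes were called lower in all 6 fits. Beside the genes named below, the number of these 6 fits that kept a call is given where it was under 6.

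The 10 largest called rises, taken where mean log2 CPM exceeded 1, were between 4.19 and 4.92 and included several genes known from red cells. Btnl10, a butyrophilin-like gene on chromosome 11, had 0.698, 1.43 and 2.79 CPM in the sham libraries and 25.9, 73.1 and 50.1 CPM in the Ang II libraries. The groups were far apart, and the log2 fold change was 4.92 ± 0.57 (SE, adjusted p = 0.00366). Dmtn, which codes for a protein that bundles actin in the red-cell skeleton, went from 1.40, 2.10 and 3.78 CPM to 30.3, 68.1 and 46.1 CPM (4.31 ± 0.45, adjusted p = 0.00256). Cldn13, a claudin of mouse erythroid cells, changed by 4.38, Rhag of the Rh membrane complex by 4.33 and Sox6, a repressor of embryonic globin genes, by 4.19. Slfn14 (4.37, 5 of 6 fits), Tmem56 (4.25, 2 of 6), Sh2d4a (4.21, 3 of 6) and the acyltransferase Mboat2 (4.20, 3 of 6) were also among the 10. In Tmem56, Sh2d4a and Mboat2, Ang II replicate 1 was the lowest Ang II library, at 6.38, 2.53 and 2.85 CPM, against 47.6, 17.1 and 16.6 CPM in replicate 2. The call of Slfn14 was lost without sham replicate 1, and those of the other three without sham replicate 1, sham replicate 3 or Ang II replicate 3, and for Tmem56 also without Ang II replicate 2.

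The most abundant called genes were of several kinds. Mki67, which codes for the proliferation marker Ki-67, had 116, 124 and 141 CPM in sham and 619.7, 601 and 654 CPM after Ang II. The libraries of each group were close together, and the log2 fold change of 2.30 ± 0.09 had the smallest adjusted p of the 10 (0.000295). Top2a, which untangles DNA before division, rose by 2.07 ± 0.10, and the chromatin protein gene Hmgb2 by 1.22 ± 0.07. The peroxide-removing enzymes Gpx1 and Prdx2 rose by 1.44 ± 0.09 and 2.25 ± 0.33. Pabpc4, a poly(A)-binding protein, and Metap2, a methionine aminopeptidase, rose by just over 2-fold (1.09 in 1 of 6 fits and 1.07 in 5 of 6). Lyz2, the lysozyme of myeloid cells, had 176 to 184 CPM in sham and 1306, 374 and 559.5 CPM after Ang II (2.05 ± 0.43, 3 of 6 fits). The immunoglobulin heavy chain constant genes Ighg3 and Ighg1 rose by 2.98 ± 0.73 (3 of 6 fits) and 2.99 ± 0.63 (4 of 6), and in both Ang II replicate 3 was by far the highest library, with 2126 CPM of Ighg3 against 358 and 418 CPM in the other Ang II libraries. The calls of Lyz2 and Ighg3 were lost when any 1 sham library was left out, that of Ighg1 without sham replicate 1 or 3, that of Metap2 without Ang II replicate 2, and that of Pabpc4 was kept only without Ang II replicate 1.

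Among the 47 genes called lower, the 10 largest falls of genes with a mean log2 CPM above 1 ranged from -1.33 to -1.15. The largest was Gzma (granzyme A, a serine protease of cytotoxic granules), at 57.4, 112 and 37.4 CPM in sham and 25.2, 24.8 and 32.1 CPM after Ang II (-1.33 ± 0.37, adjusted p = 0.0486). The groups did not overlap, but sham replicate 3 lay close to Ang II replicate 3, and the call was kept only without sham replicate 3. Prss12, which codes for the protease neurotrypsin, fell from 17.2, 17.5 and 26.2 CPM to 7.92, 11.01 and 7.25 CPM (-1.22 ± 0.23, adjusted p = 0.0165, 4 of 6 fits, not without Ang II replicate 3 or sham replicate 3). Rnf32, a RING finger gene, fell by 1.16 (SE 0.22, not without Ang II replicate 3 or sham replicate 2), Orm3, of the orosomucoid family, by 1.16 (SE 0.21, not without Ang II replicate 3 or sham replicate 1) and the potassium channel gene Kcnj8 by 1.15 (SE 0.25, only without Ang II replicate 1). The other 5 were the T cell receptor segment Trav14n-3 (only without Ang II replicate 1 or 2), Gm26583 (not without Ang II replicate 3), Gm42449 and 5830444F18Rik (both not without Ang II replicate 2, Ang II replicate 3, sham replicate 1 or sham replicate 3) and Gm19684 (only without Ang II replicate 3). Of the 47 genes called lower, 20 were protein coding and 1, Gzma, was a member of any pathway list.

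T cell genes were lower after Ang II in a narrow band. All 20 T cell identity genes (the CD3 chains, receptor constant regions, CD4, CD8 and proximal signalling genes) lay below sham in every library, 16 of them at an adjusted p under 0.05, and 0 were called because each had fallen by less than 2-fold. Their median log2 fold change was -0.51, with a range from -0.62 to -0.35, against -0.02 over all genes. Cd3e had 398, 435 and 454.5 CPM in sham and 336, 297 and 291 CPM after Ang II (-0.48 ± 0.09, adjusted p = 0.0137). Trac, the constant region of the alpha chain, went from 489, 489 and 509 CPM to 405, 380.3 and 382 CPM (-0.35 ± 0.06, adjusted p = 0.0147). Cd4 was lower by 0.45 (SE 0.08, adjusted p = 0.0143), and Cd8a had a log2 fold change of -0.56 ± 0.17 with an adjusted p of 0.0595. In bulk samples, fewer cells of a type and less RNA per cell cannot be told apart. The share of all counts on these genes was 0.851% to 0.923% in sham and 0.592% to 0.687% in Ang II libraries.

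The fall of these genes was measured relative to all genes. Their median was -0.47 with scaling by library size alone and -0.50 in DESeq2. Scaling on the identity genes themselves cannot test their own fall, but it shows how other genes moved relative to them. With libraries scaled on the summed counts of the T cell identity genes, which sets that list near 0 by construction, the median of all genes moved from -0.02 to 0.50, 2621 genes were called higher and 3 lower, and all 10 falls named above lost their call. The medians of 14 of 50 lists then changed from below to above 0, those of cytotoxic, helper, cytokine, adhesion, B cell, MHC class I, interferon-stimulated, immediate early, heat shock, TGF-beta, BCL2, cholesterol, ribosomal protein and MAP kinase phosphatase genes. Directions of these lists below hold for the scaling by all genes only.

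Genes of resting, naive T cells were lower together with the identity genes. Of 20 tested, 17 were lower at an adjusted p under 0.05 and 0 higher, with a median of -0.56 (-0.05 when scaled on the identity genes). Klf2, the transcription factor that keeps T cells quiescent, had 624, 599 and 639 CPM in sham and 367, 368 and 288 CPM after Ang II (-0.86 ± 0.11, adjusted p = 0.00461). Ccr7, the chemokine receptor that guides naive cells into lymph nodes, fell from 467, 441 and 485 CPM to 293, 318 and 278 CPM (-0.65 ± 0.08, adjusted p = 0.00403). Il7r, the survival receptor of resting T cells, was lower by 0.52 (SE 0.12).

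Activation, helper and regulatory genes gave 0 calls. Of 20 activation genes 2 were higher and 1 lower at an adjusted p under 0.05. Cd44, an adhesion receptor of effector and memory cells, was higher in every Ang II library (99.6, 108 and 105 CPM in sham and 185, 144 and 183 CPM after Ang II, 0.71 ± 0.11, adjusted p = 0.00762). The amino acid transporter gene Slc7a5 was higher by 0.73 and Cd40lg, the CD40 ligand, lower by 0.69. The early activation marker Cd69 ranged from 79.0 to 156 CPM in sham and from 74.5 to 129 CPM after Ang II, and Il2ra and Icos had log2 fold changes of -0.17 and -0.16, all with overlapping groups. Foxp3, which defines regulatory T cells, had 80.0, 75.2 and 82.2 CPM in sham and 84.3, 68.9 and 89.2 CPM after Ang II (0.03 ± 0.10, adjusted p = 0.862).

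Of 13 helper lineage factors 0 were called and 3 were lower at an adjusted p under 0.05, Gata3 of TH2 cells (-0.44 ± 0.11), Stat4 (-0.42) and Stat6 (-0.26). Tbx21 of TH1 cells (-0.52) and Bcl6 of follicular helper cells (-0.14) had overlapping groups. Of 11 checkpoint receptor genes 2 were higher by less than 2-fold. Tigit went from 20.9, 19.2 and 22.9 CPM to 31.7, 37.2 and 28.3 CPM (0.63 ± 0.13, adjusted p = 0.0208), and Lag3 had a log2 fold change of 0.59 ± 0.16 (adjusted p = 0.0413). Pdcd1 (PD-1) was above sham in every library but did not pass (0.69 ± 0.24, adjusted p = 0.0862), and Ctla4 overlapped.

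Cytotoxic genes leaned lower, with a median of -0.44 over 22 genes. Prf1 (perforin, which opens the target cell membrane) went from 75.8, 105 and 102 CPM to 58.5, 51.8 and 47.8 CPM (-0.84 ± 0.14, adjusted p = 0.0105), and Gzma is given above. Gzmb (-0.17 ± 0.28) and the chemokine Ccl5 (-0.14 ± 0.32) overlapped between groups. The 7 NK cell genes tested had a median of -0.72, and Ncr1, which marks NK cells, was 29.3, 46.2 and 19.8 CPM in sham and 25.3, 12.7 and 19.9 CPM after Ang II. The part of NK cell markers in the values of Gzma and Prf1 was not tested.

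Cytokine transcripts gave little. Of 24 cytokine genes 17 had enough counts, and Il17a, Il17f, Il22, Il5, Il9, Il13 and Csf2 were not tested. Ifng had 18.2, 13.5 and 12.99 CPM in sham and 11.1, 11.5 and 8.50 CPM after Ang II, below sham in every library without passing the test (-0.52 ± 0.19, adjusted p = 0.0999). Tnf (-0.07) and Tgfb1 (0.09) overlapped. The lymphotoxin chain gene Ltb was lower by 0.73 and Il16 by 0.50 at an adjusted p under 0.05. The only cytokine called was Il6, at 13, 9 and 8 counts in sham and 38, 27 and 28 counts after Ang II (1.45 ± 0.32, adjusted p = 0.0244, 3 of 6 fits, not without Ang II replicate 3, sham replicate 2 or sham replicate 3).

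Of 19 chemokine receptors 4 were called higher, and all of them are also receptors of myeloid cells. Ccr1 went from 4.23, 5.43 and 2.02 CPM to 30.6, 11.96 and 21.2 CPM (2.44 ± 0.45, adjusted p = 0.0144, not without sham replicate 1). Ccr2, the receptor that draws monocytes and effector T cells into tissue, had 86.7, 73.1 and 77.6 CPM in sham and 325, 119 and 187 CPM after Ang II (1.41 ± 0.33, adjusted p = 0.0291), and its call was kept only without Ang II replicate 2. Cxcr2, a neutrophil receptor, rose by 1.84 (3 of 6 fits, not without Ang II replicate 3, sham replicate 1 or sham replicate 3) and Ccrl2, an atypical receptor, by 1.34. The list gave 1 call without sham replicate 1 and 2 without sham replicate 3 or Ang II replicate 3. Levels of monocyte and neutrophil genes moved in the same libraries (below), and their part in these 4 rises was not tested. Cxcr3 (-0.08), a receptor of TH1 cells, overlapped between groups. Of 20 leukocyte adhesion genes 0 were called, and the integrin genes Itgal (-0.20), Itgb2 (-0.10) and Itga4 (-0.15) overlapped.

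The cell cycle genes rose together. Of 153 distinct genes tested in 4 lists, 102 were called higher (66.7%, against 7.01% of all genes) and 0 lower, and Ang II lay above sham in every library for 129. Mitosis genes moved most, with 48 of 52 called and a median of 2.10. The 4 not called were Kif20b (0.78), Cenpa (0.70), Racgap1 (0.37) and Smc4 (-0.23). DNA replication genes followed with 27 of 44 called and 39 higher at an adjusted p under 0.05 (median 1.28). Genes of cell cycle entry (13 of 27, median 0.80) and DNA repair (14 of 30, median 0.60) were more mixed.

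Cdk1, the kinase that drives entry into mitosis, had 5.93, 9.99 and 8.81 CPM in sham and 31.4, 50.1 and 46.8 CPM after Ang II (2.37 ± 0.25, adjusted p = 0.00274). Its partner cyclin gene Ccnb1 went from 8.41, 13.9 and 10.2 CPM to 40.2, 71.9 and 75.7 CPM (2.53 ± 0.29, adjusted p = 0.00354). Cdc25c, the phosphatase that activates CDK1, rose by 2.96 ± 0.37. In Cdk1 and Ccnb1, Ang II replicate 1 was the lowest Ang II library and still lay more than 2-fold above the highest sham library.

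For replication, Cdc6, which loads the MCM helicase on origins, rose from 6.58, 12.6 and 8.32 CPM to 34.0, 85.4 and 83.1 CPM (2.88 ± 0.41, adjusted p = 0.00671). Rrm2, the ribonucleotide reductase subunit made in S phase, rose by 2.57 ± 0.26 and Mcm2 of the helicase by 1.31 ± 0.16. Pcna, the sliding clamp, was higher by less than 2-fold (0.77 ± 0.11, adjusted p = 0.00733). Nucleotide synthesis genes showed a smaller shift, with 0 of 21 called, 7 higher at an adjusted p under 0.05 and a median of 0.38. Examples were Impdh2 (0.62 ± 0.12) and Ctps (0.65 ± 0.16).

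Among regulators, the atypical E2F gene E2f8 went from 8.07, 10.3 and 10.4 CPM to 52.0, 63.9 and 63.8 CPM (2.64 ± 0.14, adjusted p = 0.000561), and E2f1 rose by 2.04 ± 0.14. The G1/S cyclin gene Ccne1 rose by 1.64 ± 0.30 and the CDK inhibitor gene Cdkn1a (p21) by 1.35 ± 0.25, each in 3 of 6 fits and not without Ang II replicate 3, sham replicate 1 or sham replicate 3. Ccnd2, the D-type cyclin of lymphocytes, did not move beyond its spread (-0.26 ± 0.18, adjusted p = 0.344), and Cdkn1b (p27), an inhibitor of resting cells, was lower by 0.47. Of the DNA repair genes, Rad51ap1 (2.19), Fancd2 (2.16), Exo1 (2.07) and Brca1 (1.91) rose, and Atm was lower by 0.37. In the 6 fits that left out 1 library, 47 or 48 of 52 mitosis genes and 23 to 29 of 44 replication genes were called.

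Promoters of mitosis genes shared short motifs that the choice of genes did not use. The letters TTTGAA, found in the cell cycle homology region of many mitosis genes, stood on either strand in 35 of 46 promoter windows of this list (76.1%), against 12.6% of the 13807 windows of genes tested and 12.2% for replication genes. CCAAT stood in 73.9% of mitosis windows, 58.5% of replication windows and 37.5% of all windows of genes tested. A window ran from 250 bases before to 50 bases after the start site in RefSeq (build GRCm38.p6), both strands were searched, and a window can hold more than 1 motif. A match is a description of letters and not a bound site. The windows below, 5′ to 3′ on the strand of the gene with the motif in capitals, show TTTGAA in 3 of the mitosis genes named above, at chr7:135716478-135716507 (minus strand, Mki67), chr10:69352966-69352995 (minus strand, Cdk1) and chr11:99024351-99024380 (minus strand, Top2a), and CCAAT at chr13:100786568-100786597 (minus strand, Ccnb1).
Mki67: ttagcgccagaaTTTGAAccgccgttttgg
Cdk1: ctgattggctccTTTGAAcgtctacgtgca
Top2a: ctattggtccatTTTGAAgattctcccgcc
Ccnb1: gaacccgcggcgCCAATgggaagagagcga

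Many genes of red-cell precursors rose, and the red-cell membrane list had the highest median of the 50 lists. Of 68 genes tested in 5 lists, 43 were called higher (63.2%) and 0 lower, with a median of 2.30. Of 20 membrane and skeleton genes 18 were called, with a median of 3.69, and the 2 not called were Epb41 (0.19) and Slc2a1 (-0.32). The mean log2 CPM of this list was 2.57, 3.24 and 3.44 in sham and 5.79, 6.76 and 6.35 in Ang II libraries. Every Ang II library lay above every sham library, and replicate 1 was the lowest of the 3.

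Slc4a1 (band 3, the anion exchanger) had 13.7, 5.35 and 47.2 CPM in sham and 456, 486 and 245 CPM after Ang II (4.17 ± 0.76, adjusted p = 0.0142, not without sham replicate 1). Of 16 erythroid transcription factors and the erythropoietin receptor, 12 were called with a median of 2.21. Klf1, the master factor of globin genes, rose from 8.28, 23.7 and 10.8 CPM to 47.8, 171 and 140.0 CPM (3.06 ± 0.57, adjusted p = 0.0149, 3 of 6 fits). Epor, the receptor for erythropoietin, rose from 2.66, 6.90 and 3.01 CPM to 14.5, 49.7 and 45.1 CPM (3.11 ± 0.56, adjusted p = 0.0137, 4 of 6 fits). Gata1 (2.27 ± 0.39) and Tal1 (2.77 ± 0.49), both in 4 of 6 fits, rose too. The calls of Klf1, Epor, Gata1 and Tal1 were lost without sham replicate 1 or 3, that of Klf1 also without Ang II replicate 3, and this list gave 7 and 6 calls without sham replicate 1 and 3.

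The haem pathway gave 7 of 12 calls, with all 12 genes above sham in every library. Fech, which inserts the iron, rose from 37.0, 33.3 and 41.5 CPM to 142, 131 and 101 CPM (1.75 ± 0.14, adjusted p = 0.00124), and the mitochondrial transporter gene Abcb10 by 2.88 ± 0.36. Alas2, the erythroid rate-limiting enzyme, was at 25.8, 13.8 and 23.4 CPM in sham and at 268, 76.2 and 29.6 CPM after Ang II, above sham throughout but short of the threshold (2.57 ± 0.75, adjusted p = 0.0551). Iron uptake followed: the transferrin receptor gene Tfrc rose by 1.84 ± 0.20 and the mitochondrial iron carrier Slc25a37 by 1.48 ± 0.16. Slc30a10, a manganese exporter, rose from 6, 11 and 4 counts to 79, 405 and 361 counts (5.18 ± 0.76, adjusted p = 0.00733). Of 17 iron and manganese genes 7 were called, but 4 without Ang II replicate 3, sham replicate 1 or sham replicate 3. The haem list gave 4 calls without Ang II replicate 2 or sham replicate 1.

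Globin transcripts varied widely among the Ang II libraries. Hba-a1 (alpha globin) had 150.3, 82.1 and 141 CPM in sham and 1686, 460.4 and 192 CPM after Ang II (2.65 ± 0.75, adjusted p = 0.0504), and Hbb-bs (beta globin) 214, 126 and 184 CPM in sham and 2178, 568 and 194 CPM after Ang II (2.49 ± 0.80, adjusted p = 0.0701). Ang II replicate 1 held the most, and replicate 3 lay within the sham range for Hbb-bs and just above it for Hba-a1. For Klf1 and Epor, by contrast, replicate 1 was the lowest Ang II library. The 4 globin genes took 0.485%, 0.129% and 0.0466% of the counts of the Ang II libraries and 0.0252% to 0.0453% of those of the sham libraries. Of these 4 genes 0 were called, the median without Ang II replicate 1 was 1.26 against 2.57 with it, and 3 of the 4 were called without Ang II replicate 3, with a median of 3.03. Hba-a1 and Hba-a2, and Hbb-bs and Hbb-bt, are near-identical copies whose unique counts are uncertain.

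The letters AGATAA, which GATA factors bind, stood in 17.1% of 76 promoter windows of the red-cell lists, 8.21% of windows of genes called higher and 6.92% of windows of genes tested. Of 21 key members of the red-cell and mitosis lists searched, 14 had a promoter window. Among red-cell key members, AGATAA was found before the start site of Hbb-bs, Alas2, Epor and Tal1. The windows of Alas2 (chrX:150547319-150547348, plus strand) and Epor (chr9:21963613-21963642, minus strand) were picked from these and hold its reverse complement in capitals.
Alas2: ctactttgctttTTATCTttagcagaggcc
Epor: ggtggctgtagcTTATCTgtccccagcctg

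**Figure D2:**
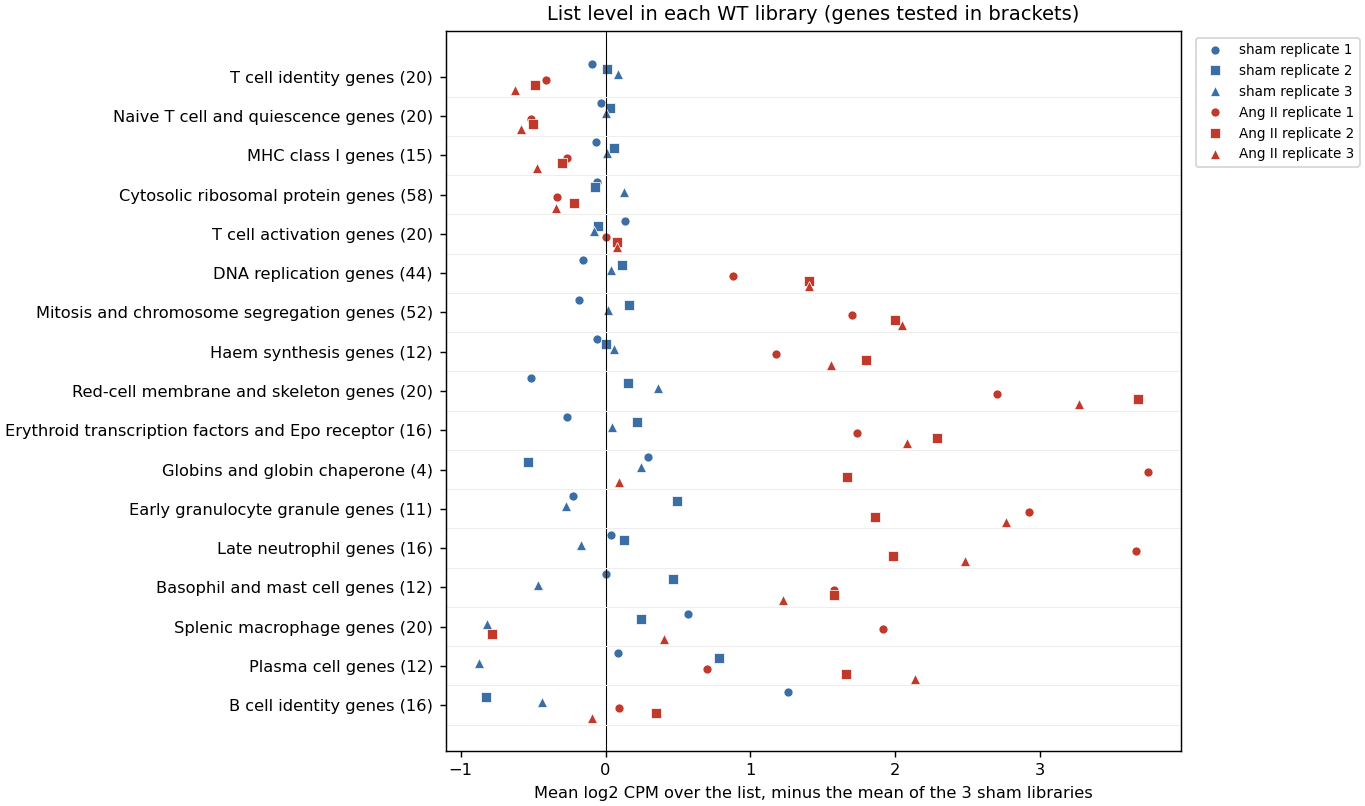
Level of 17 gene lists in each of the 6 WT libraries, as the mean log2 CPM over the tested genes of the list minus the mean of the 3 sham libraries (x axis). Blue symbols are sham and red symbols Ang II libraries, with the shape giving the replicate. T cell lists are shifted slightly to the left, cell cycle, haem, red-cell membrane and erythroid factor lists to the right in all 3 Ang II libraries, and T cell activation, globin, macrophage, plasma cell and B cell lists overlap between groups.

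Genes of other blood cells rose as well, including those of granulocytes. Of 170 genes tested in lists of granulocytes, platelets, macrophages, monocytes, dendritic cells, progenitors, B cells, plasma cells, NK cells and MHC class I and class II genes, 55 were called higher (32.4%) and 1 lower. The 15 MHC class I and 10 MHC class II genes among them gave 0 calls. Early granule genes gave 10 of 11 (median 3.02) and late neutrophil genes 15 of 16 (median 3.17). Mpo, the myeloperoxidase of promyelocytes, had 34.2, 66.5 and 39.1 CPM in sham and 424, 252 and 440.3 CPM after Ang II (3.00 ± 0.32, adjusted p = 0.00277). Elane (3.02 ± 0.44), Prtn3 (3.19 ± 0.44) and Ctsg (3.09 ± 0.26), the serine proteases of the same granules, rose alike, and Gfi1, a repressor also used by lymphocytes, did not (-0.31, adjusted p = 0.15).

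Ltf (lactoferrin of secondary granules) had 37.7, 25.2 and 31.0 CPM in sham and 632, 141 and 173 CPM after Ang II (3.33 ± 0.60, adjusted p = 0.0135). S100a8, a subunit of calprotectin, rose from 32.4, 31.2 and 27.3 CPM to 466, 155 and 202 CPM (3.18 ± 0.41), Ngp by 3.32 ± 0.60, Camp by 3.19 ± 0.68 and the collagenase gene Mmp8 by 3.71 ± 0.39. Ang II replicate 1 was 3-fold or more above the other Ang II libraries for Ltf and Camp. The mean log2 CPM of the late neutrophil list was 3.38, 3.47 and 3.18 in sham and 7.01, 5.33 and 5.83 in Ang II libraries. Without Ang II replicate 1 the median of this list was 2.32 and 15 of 16 genes were called, whereas 7, 11 and 8 were called without sham replicate 1, 2 and 3, and the calls of Ltf, Ngp and Camp were lost in each of those 3 fits.

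Basophil and mast cell genes gave 8 of 12 calls (median 1.60). Prss34, a basophil protease, rose from 18.0, 33.1 and 22.3 CPM to 256, 128 and 91.6 CPM (2.70 ± 0.42, adjusted p = 0.00833) and Mcpt8 by 2.53 ± 0.39. Gata2 (1.21), Ms4a2 of the IgE receptor (1.68) and Cpa3 (1.53) rose in 4 of 6 fits. The calls of Ms4a2 and Cpa3 were lost without sham replicate 1 or Ang II replicate 3 and that of Gata2 without sham replicate 1 or 3, and the list gave 4 calls without sham replicate 1 and 5 without Ang II replicate 3. Megakaryocyte genes gave 7 of 17, led by Thbs1 (2.24 ± 0.44, not without sham replicate 1), but only 1 without sham replicate 1, 1 without Ang II replicate 3 and 2 without sham replicate 3. Pf4, the platelet chemokine, had 2.62, 3.76 and 1.30 CPM in sham and 3.89, 6.12 and 9.03 CPM after Ang II (1.30 ± 0.44, adjusted p = 0.083). Stem and progenitor genes gave 10 of 15, with Cd34 at 2.79, 4.99 and 2.92 CPM in sham and 23.8, 12.2 and 12.97 CPM after Ang II (2.19 ± 0.35, adjusted p = 0.00928), Hoxa9 at 2.14 ± 0.29 and the stem cell factor receptor Kit at 1.67 ± 0.32 (3 of 6 fits). That list gave 4 calls without sham replicate 1, 3 without sham replicate 3 and 5 without Ang II replicate 3, and the call of Kit was lost in the same fits.

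Macrophage, B cell and plasma cell genes did not separate the groups in the same way. Of 20 splenic macrophage genes 1 (Lyz2) was called. Csf1r had 132, 118 and 52.5 CPM in sham and 352, 61.4 and 121 CPM after Ang II, and the median of the list changed from 0.65 to -0.34 without Ang II replicate 1. Of 16 monocyte genes 7 were called, but 1, 2 and 2 without sham replicate 1, 2 and 3 and 4 without Ang II replicate 3. Fn1, the fibronectin gene, rose from 53.8, 57.5 and 67.5 CPM to 567, 152 and 209.7 CPM (2.38 ± 0.48, 3 of 6 fits, lost when any 1 sham library was left out). Of 16 B cell genes 0 were called, and 0 had groups that did not overlap (median -0.31). Plasma cell genes had a median of 1.57 with 1 of 12 called, Ighg1. Jchain, the chain that joins IgM and IgA, spanned 62.2 to 630.3 CPM in sham and 383 to 1580 CPM after Ang II (1.90 ± 0.86, adjusted p = 0.16). Without Ang II replicate 1, 6 plasma cell genes were called, without sham replicate 2, 4, and without sham replicate 1 or 3, 0.

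Eosinophil genes were not on any list and were looked at after their values were seen. Prg2 (major basic protein) rose by 3.38 ± 0.85 (adjusted p = 0.0355) and Epx (eosinophil peroxidase) by 3.06 ± 0.69 (adjusted p = 0.0266), with Prg2 at 8.59, 41.1 and 5.80 CPM in sham and 299.7, 69.1 and 210.5 CPM after Ang II. Both calls were lost without Ang II replicate 3, sham replicate 1 or sham replicate 3. Other unlisted rises seen in the same way were Car2, the carbonic anhydrase of red cells, at 3.37 ± 0.51, Cd24a at 3.33 ± 0.24 and the erythroid nuclear gene Hemgn at 4.07 ± 0.46.

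**Figure D3:**
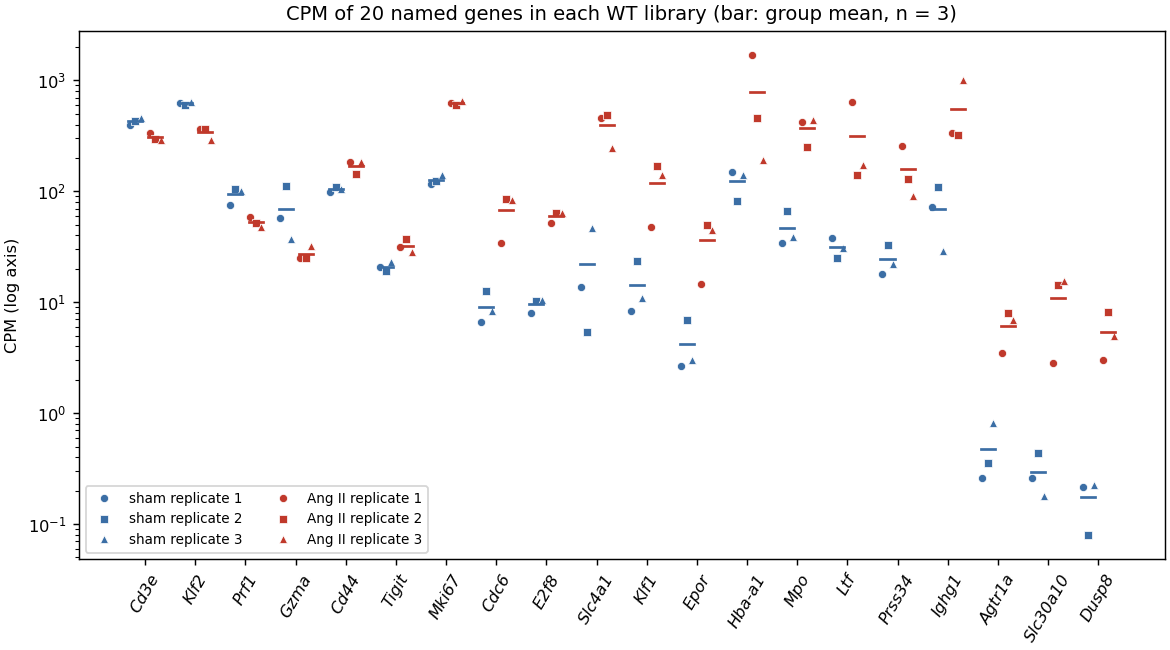
CPM of 20 named genes in each of the 6 WT libraries on a log axis, with sham in blue, Ang II in red, the shape for the replicate and a bar for the mean of 3. Mki67 and E2f8 have tight groups far apart, Hba-a1 and Ltf have 1 Ang II library well above the others, and Cd3e, Klf2 and Prf1 lie lower after Ang II.

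The part that red-cell, granulocyte and other non-T cell transcripts had in the rise of the cell cycle genes was not tested. The values that moved with it are these. Red-cell membrane genes were above sham in all 3 Ang II libraries with replicate 1 lowest (mean log2 CPM of 5.79 against 6.76 and 6.35), early granule genes were likewise above sham with replicate 2 lowest (3.94 against 5.0 and 4.85), and mitosis genes had mean log2 CPM of 5.42, 5.72 and 5.76, with replicate 1 lowest.

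**Figure D4:**
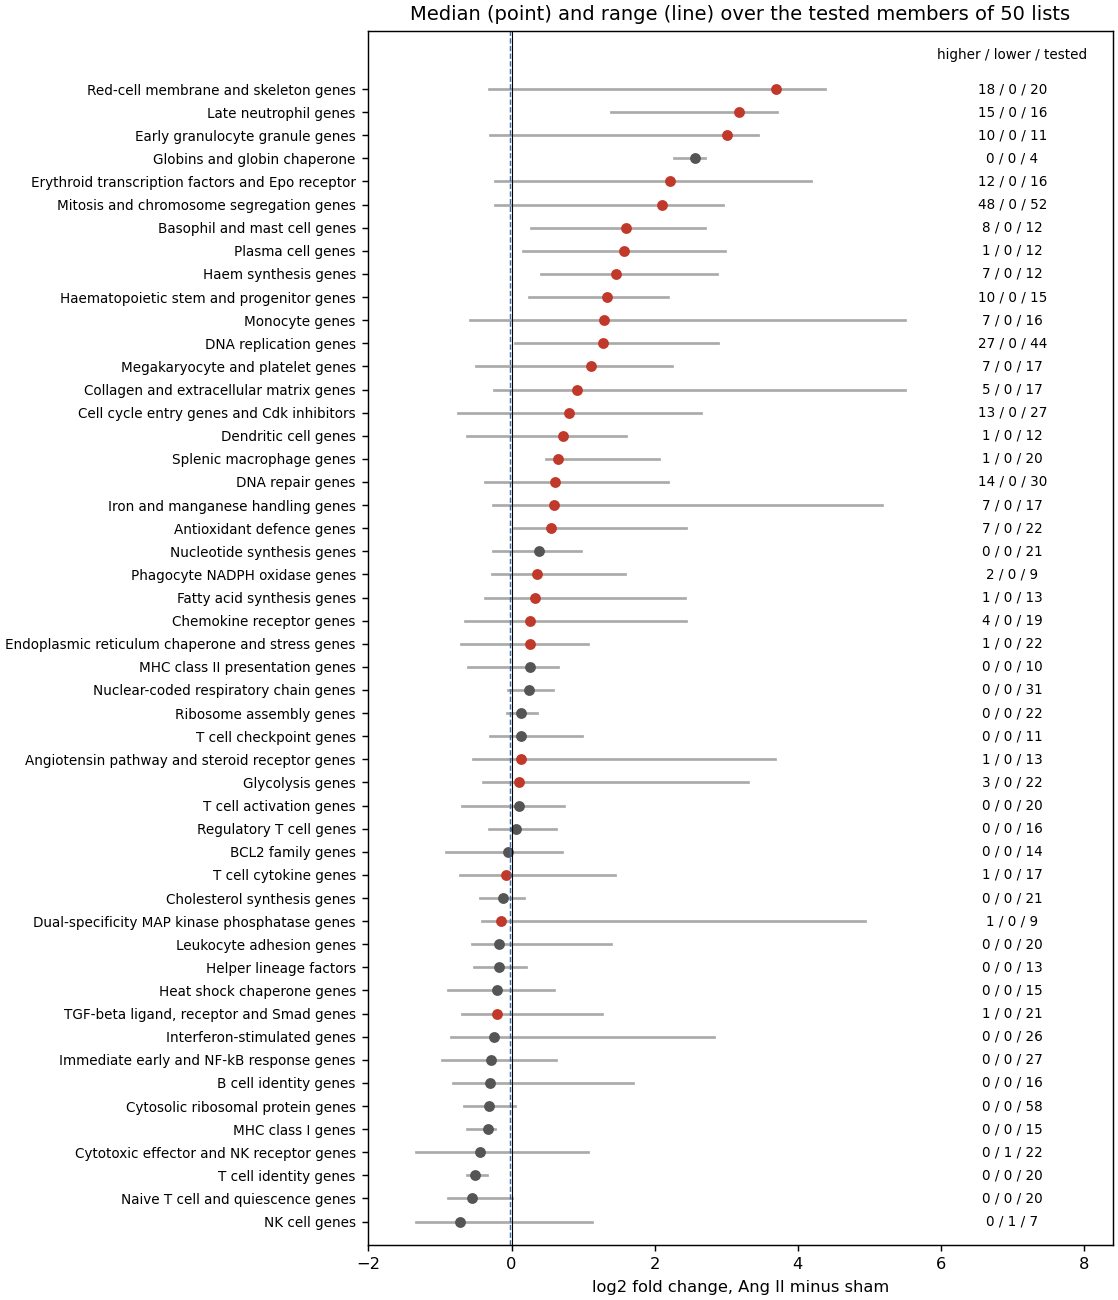
Median (point) and range (line) of the log2 fold change, Ang II minus sham, over the tested genes of 50 lists, with the number called higher, called lower and tested at the right. Red points have at least 1 gene called higher, and the dashed line is the median of all 16012 genes. Red-cell membrane genes have the highest median, 3.69, and NK cell, naive T cell and T cell identity genes the lowest, -0.72, -0.56 and -0.51.

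Stress and signalling genes changed less. Antioxidant genes were the clearest, with 7 of 22 called higher, 13 higher at an adjusted p under 0.05 and 0 lower (median 0.55). The part of red-cell and other non-T cell transcripts in these rises was not tested. Nqo1, a quinone reductase controlled by NRF2, went from 0.959, 2.10 and 1.21 CPM to 4.10, 10.7 and 8.50 CPM (2.43 ± 0.44, adjusted p = 0.0137, 3 of 6 fits, not without Ang II replicate 3, sham replicate 1 or sham replicate 3). Catalase (Cat, 0.22) and Sod2 (0.16) overlapped between groups. Of 9 genes of the phagocyte NADPH oxidase, which makes superoxide, 2 were called, among them Cybb (1.58 ± 0.42). Cybb was at 310.2 CPM in Ang II replicate 1 against 106 and 138 CPM in the other 2 and 50.3 to 83.7 CPM in sham. Its call was kept only without Ang II replicate 2, and 0 genes of the list were called without Ang II replicate 3 or when any 1 sham library was left out.

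Among angiotensin and steroid receptor genes 1 of 13 tested was called (7.69%, close to the 7.01% of all genes called higher). The called gene was the AT1 receptor gene Agtr1a (build GRCm38, chr13:30336441-30382867, plus strand). It had 0.262, 0.357 and 0.809 CPM in sham (6, 9 and 18 counts) and 3.46, 8.07 and 6.86 CPM after Ang II (97, 228 and 158 counts), a log2 fold change of 3.68 ± 0.50 (adjusted p = 0.00603) that was called in all 6 fits. Per length its level was far below that of Cd3e, at 0.171 CPM per kb in sham and 2.20 CPM per kb after Ang II, against 105 and 75.5 CPM per kb for Cd3e. Which cells in these bulk samples carried the Agtr1a transcripts was not tested. Agt, Agtr1b, Agtr2, Ren1, Mas1 and Enpep had too few counts to be tested. Ace (0.38), the glucocorticoid receptor gene Nr3c1 (-0.09) and the mineralocorticoid receptor gene Nr3c2 (0.10) did not pass, and Sgk1, a kinase gene that both kinds of steroid hormone can induce, was lower by 0.54 at an adjusted p under 0.05.

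TGF-beta pathway genes leaned lower. Of 21 tested, 7 were lower at an adjusted p under 0.05, against 7.06% of all genes. The 1 gene called higher (4.76%, against 7.01% of all genes) was Ltbp3, which stores latent TGF-beta (1.26 ± 0.32, 2 of 6 fits, only without Ang II replicate 1 or sham replicate 2). Tgfbr2, the ligand-binding receptor, went from 476, 526 and 523 CPM to 387, 391.6 and 357 CPM (-0.43 ± 0.08, adjusted p = 0.0129), the inhibitor Smad7 was lower by 0.69 and Smad3 by 0.36. Immediate early genes leaned the same way, with 0 of 27 called and 6 lower at an adjusted p under 0.05. Jun had 357, 298 and 243.5 CPM in sham and 162, 164 and 159.8 CPM after Ang II (-0.89 ± 0.13, adjusted p = 0.00772), and Fos (-0.41), Egr1 (-0.19) and Nfkbia (-0.12) overlapped. Interferon-stimulated genes had a median of -0.25, with 5 of 26 lower at an adjusted p under 0.05 and Mx1 at -0.09. MHC class I genes had a median of -0.33, with H2-K1 lower by 0.45. Of these 15 genes 13 were below sham in every library, against 20.3% of all genes. The MHC class I list had a mean log2 CPM of 9.18 in sham. Among all genes with a mean log2 CPM over 8, 372 of 731 were below sham in every library.

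Dusp8, a phosphatase that switches off JNK and p38 kinases, went from 5, 2 and 5 counts to 85, 232 and 114 counts (4.94 ± 0.54, adjusted p = 0.00296), whereas Dusp1 (-0.38) and Dusp6 (-0.10) overlapped. Heat shock genes gave 0 of 15 calls. Atf6, a sensor of unfolded protein in the endoplasmic reticulum, rose by 1.07 ± 0.16 (4 of 6 fits, not without Ang II replicate 3 or sham replicate 3), and Hspa5 (0.20), Ddit3 (-0.10) and Atf4 (0.10) did not pass. In the matrix list 5 of 17 genes were called, Vcan (versican, only without Ang II replicate 1 or 2), Col5a1 (2.94 ± 0.54, 3 of 6 fits, not without Ang II replicate 3, sham replicate 1 or sham replicate 3), Mmp9, Fn1 and Thbs1. All but Col5a1 are also on a blood cell list above, and 1, 2 and 3 genes were called without sham replicate 1, sham replicate 3 and Ang II replicate 3. Vcan had 1, 0 and 4 counts in sham, with a limit of 3 counts behind the 0, and 89, 12 and 157 counts after Ang II. Col1a1 was near 1 CPM in both groups (-0.24 ± 0.30).

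Metabolic genes had a median of 0.01, with 4 of 188 called (2.13%). Of 22 glycolysis genes 3 were called, the red-cell and liver pyruvate kinase gene Pklr (6.41, 18.8 and 4.496 CPM to 25.5, 134 and 136 CPM, 3.30 ± 0.77, 2 of 6 fits), the muscle-type phosphofructokinase gene Pfkm (1.40 ± 0.33, only without Ang II replicate 1) and Hk2 (1.46 ± 0.34, only without Ang II replicate 2). Pklr was not called without sham replicate 1, sham replicate 3, Ang II replicate 2 or Ang II replicate 3, and the list gave 2, 1 and 0 calls without Ang II replicate 1, 2 and 3 and 0, 1 and 1 without sham replicate 1, 2 and 3. Pkm (0.01), Ldha (0.11) and Pfkp (-0.18), the forms that T cells use, did not pass. Fads2, a fatty acid desaturase, rose by 2.42 ± 0.39, and Fasn (-0.08) and Acaca (0.20) did not pass. Cholesterol synthesis genes had a median of -0.12. Nuclear-coded respiratory chain genes had a median of 0.25 with 9 of 31 higher at an adjusted p under 0.05, such as Uqcrc1 (0.34 ± 0.09). For cytosolic ribosomal protein genes the direction was the opposite, with a median of -0.31. Of 58 genes 48 were below sham in every library (20.3% of all genes) and 23 lower at an adjusted p under 0.05 (7.06% of all genes). This list is abundant, with a mean log2 CPM of 9.97 in sham. Among all genes with a mean log2 CPM over 8, 372 of 731 were below sham in every library. In that band 31.5% were lower at an adjusted p under 0.05.

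By class, protein-coding genes carried most of the rises (1046 of 12884 called higher, 8.12%), against 76 of 3128 in all other biotypes (2.43%). Of 421 lincRNA genes 16 were called higher and 4 lower, and of 594 antisense genes 12 and 6. The setting for strand in the counting is not given in the sources used here, so values of antisense and overlapping genes are uncertain. Immunoglobulin and T cell receptor segments went opposite ways, with 25 of 174 immunoglobulin V segments called higher (median 1.98) and 0 of 94 T cell receptor V segments higher and 2 lower (median -0.42). The immunoglobulin V segments took 0.0615%, 0.200% and 0.0216% of counts in sham and 0.163%, 0.401% and 0.637% after Ang II. Sham replicate 2 thus lay above Ang II replicate 1. All Ang II libraries were above all sham libraries in 48 of the 174 segments, against 20.5% of all genes. Segments of both families share sequence, which makes unique counts uncertain.

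Abundance mattered too. Called rises were most frequent among genes with a mean log2 CPM of 2 to 4 (13.01% of 2828) and rare above 8 (0.684% of 731). In that top band 230 genes were lower and 32 higher at an adjusted p under 0.05, with a median of -0.21. This abundance is per library count and not per length. Across chromosomes 1 to 19 and X, 5.83% to 8.76% of genes were called higher. Among families that share a symbol stem, kinesins (Kif) had the largest share called higher, 11 of 32, and the zinc finger genes named Zfp a small one, 6 of 338.

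**Figure D5:**
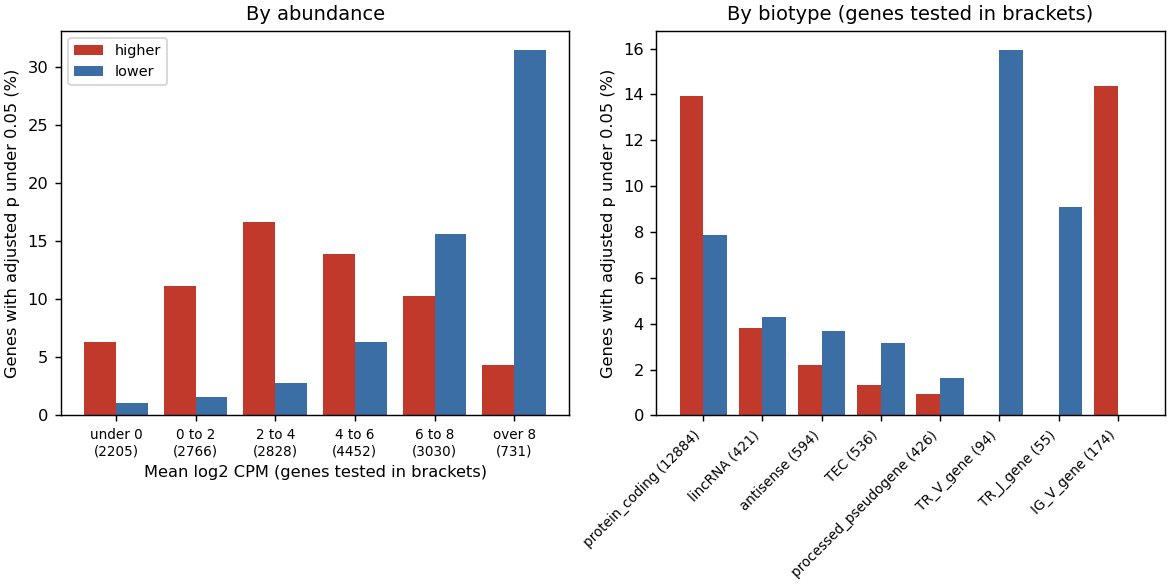
Percent of genes higher (red) or lower (blue) at an adjusted p under 0.05, by mean log2 CPM over the 6 libraries (left) and by biotype (right, where TEC stands for loci whose transcript awaits experimental proof, TR for T cell receptor and IG for immunoglobulin segments). Genes that were higher peak at 16.6% between 2 and 4, and genes that were lower reach 31.5% above 8.

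Beside the WT values, the same comparison in T cells of miR-214-/- mice, fitted on its own 6 libraries, gave 0 called of 15937 genes in edgeR's quasi-likelihood test, with 1939 (12.2%) at an unadjusted p under 0.05. DESeq2 was not run on this comparison here, so how far the count of 0 depends on the tool was not tested. With DESeq2 the study reported some genes changed in miR-214-/- T cells, far fewer than in WT. The median log2 fold change of the mitosis list was 2.10 in WT and 0.49 in miR-214-/-, that of the red-cell membrane list 3.69 and 0.47, and that of the T cell identity genes -0.51 and -0.01. The miR-214-/- libraries differed widely within groups. Scaled over 12 libraries, the mean log2 CPM of red-cell membrane genes was 2.79, 5.19 and 4.86 in miR-214-/- sham and 5.80, 5.05 and 3.65 in miR-214-/- Ang II libraries. That of mitosis genes was 4.015, 4.605 and 4.64 in miR-214-/- sham and 5.44, 4.43 and 4.51 in miR-214-/- Ang II libraries. The difference between genotypes was tested gene by gene as the interaction in 1 fit over 12 libraries, and 0 of the genes on any list passed at an adjusted p under 0.05, with 1 of 16770 genes passing in all (0.00596%) and 2483 (14.8%) at an unadjusted p under 0.05. That count was 444 with DESeq2 and 919 without Ang II replicate 1 of the miR-214-/- group, and 0 to 3 in the other fits that left out 1 library.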

How the data were processed

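Splenic T cell RNA was sequenced as paired-end stranded poly(A) libraries. The authors trimmed reads with Trimmomatic, aligned them with STAR to GRCm38 and deposited raw counts per gene from featureCounts (Subread 1.5.2). Annotation release and strand setting of the counting are not given in the sources used here. Gene symbols came from GENCODE and matched 49056 of 49315 identifiers, and the 259 others held 0.0246% of WT counts.

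Genes passing filterByExpr were fitted over the 6 WT libraries with edgeR 4.0.16 (TMM scaling, glmQLFit, glmQLFTest) in R 4.3.3, with Benjamini-Hochberg adjustment over all genes tested. Values in CPM were scaled by library size times TMM factor. On simulated counts edgeR recovered 169 of 200 changed genes with 13 false calls, and DESeq2 186 with 28. The 200 changes were split evenly between rises and falls, all beyond the fold change limit and in genes above the lowest counts. No shift in cell mix was simulated. The real changes were more numerous and mostly rises, so these counts are not error rates of the comparison itself. DESeq2 1.42.0, other scalings and filters, a replicate block and fits without each library were alternatives. The smallest p that exact permutation allows for 3 against 3 libraries is 0.1. The p-values measure the spread between mice of 1 experiment.

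Gene lists (50) and genes were chosen with earlier results of these data known. Named genes were the 10 largest rises and 10 largest falls that were called, had groups apart and exceeded 1 in mean log2 CPM, the 10 most abundant called genes, and for each list its preset key members and its called member with the largest change. Other genes named (for example members that did not pass, or eosinophil genes) were chosen after their values were seen. Promoter windows came from RefSeq. Some genes that the rule names are not reported here.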

Additional observations from a re-analysis of the deposited data

How the results depend on the processing

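The 1122 genes called higher and 47 called lower became 2621 and 3 when libraries were scaled on T cell identity genes, and 1878 and 1131 with an adjusted p under 0.05 alone. The count called lower was 26 without a filter on low counts, 100 in 1 fit over 12 libraries and 24 with a replicate block. Leaving out 1 library each gave 554 to 1253 higher and 6 to 85 lower. The genes higher stayed within 1.5 times the count under DESeq2 (1338), library size scaling (1160), no filter (1367) and the block (942, of which 886 were shared). The interaction with genotype went from 1 gene to 444 with DESeq2, to 0 with the replicate block and to 0 to 919 when 1 library was left out. The cause of these differences was not tested. Same-numbered sham and Ang II libraries had correlations of 0.202, 0.11 and -0.149 in their deviations from the group means, against -0.235 to 0.203 for other pairs. With 3 libraries a group this cannot settle whether the numbers pair the mice. The labels name no pairing, so the block is only an alternative. With 3 libraries a group, genes of low count and lists led by 1 library, such as globins, were measured least precisely.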
